A study of Mus musculus with 15 samples.

Results

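The nuclear-encoded subunits of oxidative phosphorylation were followed in RNA from 2 segments of the mouse kidney tubule. Members were the genes of the count table with a protein-coding GENCODE M21 symbol of one of these forms. For complex I it was Nduf, one of the letters a, b, c, s or v, and a digit. Complex II was Sdha to Sdhd, and complex III was Cyc1 and symbols that begin with Uqcr. For complex IV it was Cox, a subunit number of 4 to 8 and then a, b, c or a digit. Complex V, ATP synthase, was symbols that begin with Atp5, and cytochrome c was Cycs. This gave 85 of the 54752 genes, of which 37 belonged to complex I, 4 to complex II, 9 to complex III, 16 to complex IV, 18 to complex V and 1 was cytochrome c. The rule reads names alone. A further 12 names fitted the pattern but were not protein-coding, and the pattern passed over Cox4i1, Cox4i2, Ndufab1 and Atpif1, which are given separately.

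The libraries came from proximal convoluted tubules (PCT) of Cldn10a KO mice (3 libraries) and of WT mice (4 libraries), and from distal convoluted tubules (DCT) of Cldn10a KO mice (4 libraries) and of WT mice (4 libraries). Claudin-10a is a tight junction protein of the proximal tubule with selectivity for anions, and the study asked what its loss changes in each segment. Each library was made from tubules pooled per kidney after enzymatic preparation, 10 PCTs or about 20 DCTs. The labels give neither strain, age nor sex, nor whether each number marks a different mouse, and every p-value here reflects how far these libraries scatter.

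The oxidative phosphorylation system sits in the inner mitochondrial membrane. Complexes I and II pass electrons from NADH and succinate to ubiquinone, complex III hands them on to cytochrome c, complex IV reduces oxygen, and ATP synthase uses the proton gradient that complexes I, III and IV build. Proximal and distal convoluted tubules both spend large amounts of ATP on sodium transport by the Na,K-ATPase, and both are rich in mitochondria. Mitochondrial DNA encodes a few core subunits, while the genes described here are transcribed in the nucleus.

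The libraries held between 28729339 and 51764746 counts, of which 57.8% to 71.6% were mitochondrial rRNA and 8.02% to 19.7% came from nuclear protein-coding genes. Cldn10 had 0 counts in all 3 PCT KO libraries, against 541 to 1514 counts in the PCT WT libraries. The 10 proximal tubule markers summed to between 4572 and 4842 CPM (counts scaled to the size of the library) in PCT KO, 4013 and 4797 CPM in PCT WT, 7.16 and 15.0 CPM in DCT KO, and 11.7 and 14.5 CPM in DCT WT. The 8 distal convoluted tubule markers summed to between 23.9 and 35.6 CPM in PCT KO, 28.5 and 32.4 CPM in PCT WT, 3238 and 3865 CPM in DCT KO, and 2877 and 3877 CPM in DCT WT. The DCT libraries also held connecting tubule and principal cell markers, at 1633 to 2341 CPM in KO and 1631 to 2597 CPM in WT. Calb1 is on this list and on that of the distal convoluted tubule, so these sums are not separate. In bulk libraries, fewer cells of a type and less RNA per cell cannot be told apart.

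PCT KO replicate 5 and DCT KO replicate 7 stood apart from the others of their group in these genes, and results that rest on them are given with and without them. Of nuclear protein-coding counts, the members took 2.39%, 1.501% and 2.56% in PCT KO replicates 4, 5 and 7, against 2.44%, 2.66%, 2.75% and 2.67% in PCT WT replicates 1, 2, 3 and 6. They took 4.37%, 4.70%, 3.50% and 4.89% in DCT KO replicates 5 to 8, against 5.23%, 4.69%, 5.01% and 4.42% in DCT WT replicates 1 to 4. Every DCT library lay above every PCT library, and within KO the low values were replicate 5 in PCT and replicate 7 in DCT.

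Levels within the module were compared per kilobase of transcript. In PCT WT libraries the highest were Atp5b, the catalytic beta subunit of ATP synthase, at 264 CPM per kb, and Cox7c, a small complex IV subunit, at 243 CPM per kb. In DCT WT libraries Atp5b reached 422 CPM per kb and Atp5g1, 1 of the 3 genes for the c-ring of ATP synthase, 402 CPM per kb. The highest member of complex I was Ndufa4 in PCT WT (101 CPM per kb; this protein is now also assigned to complex IV) and Ndufa1, a membrane-arm accessory subunit, in DCT WT (161 CPM per kb). Complex III was led by Uqcrh, the hinge protein near cytochrome c1, with 96.8 CPM per kb in PCT WT and 192 CPM per kb in DCT WT. Complex II was led by the flavoprotein Sdha in PCT WT (49.6 CPM per kb) and by the membrane anchor Sdhd in DCT WT (66.4 CPM per kb). Median levels per complex ran from 16.5 CPM per kb for complex I to 49.7 CPM per kb for complex V in PCT WT, and from 27.0 CPM per kb for complex I to 81.2 CPM per kb for complex V in DCT WT.

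Most members were lower in proximal than in distal tubules of WT mice. Of the 80 members tested, 65 fell and 1 rose in PCT relative to DCT (limma, Benjamini-Hochberg adjusted p under 0.05 over all genes), where 25.1% of all 13616 genes tested fell and 23.6% rose (48.7% in all). The 1 that rose, Cox6a2, had 0 counts in every DCT library and entered the test only through PCT, so its call is no result. In 61 members every PCT value lay under every DCT value, against 22.3% of all genes, and in Cox6a2 alone every PCT value lay above, against 22.7%. At an unadjusted p under 0.05, 68 members were lower, against 28.0% of all genes. The median log2 difference of the members was -0.59, against -0.023 over all genes tested. Every member of complex V that was tested fell, 17 of 17, with a median of -0.67. In complex I 27 of 36 fell (median -0.59), in complex II 3 of 4 (median -0.29), in complex III 7 of 9 (median -0.39), and in complex IV 11 of 13 (median -0.64). Cycs did not pass (log2 difference -0.28, adjusted p = 0.080).

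**Figure D1:**
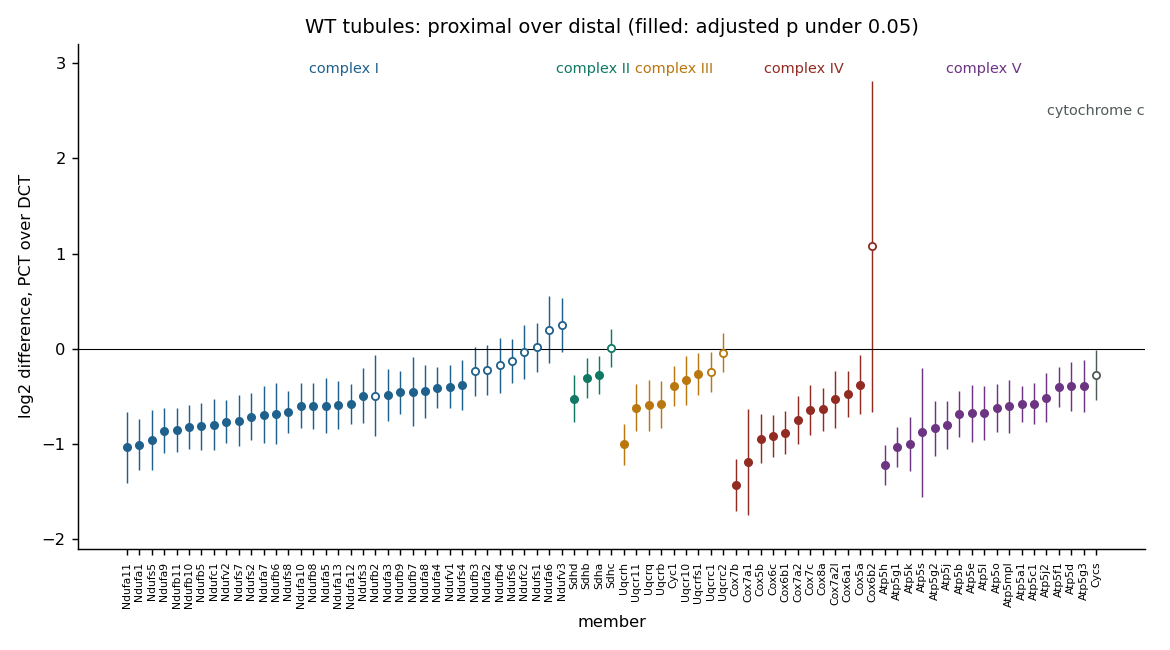
Log2 difference of PCT over DCT in WT tubules (vertical axis, with 95% intervals of the limma fit) for each member, ordered within its complex; filled points have an adjusted p under 0.05. Nearly all points lie below 0, from -1.43 for Cox7b up to 0.25 for Ndufv3, with Cox6b2 at 1.08 and a wide interval; Cox6a2, which had 0 counts in every DCT library, is not drawn.

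Atp5h, subunit d of the stator stalk of ATP synthase, had the smallest p. It stood at 49.0, 61.0, 59.3 and 57.4 CPM in PCT WT replicates 1, 2, 3 and 6, against 132, 120, 145 and 126 CPM in DCT WT replicates 1 to 4. The groups did not overlap, and the log2 difference was -1.22 (SE 0.10, n = 4 each, limma adjusted p = 4.65e-08). Cox7b, a complex IV subunit encoded on the X chromosome, had 42.8, 52.0, 55.6 and 48.3 CPM in PCT WT and 152, 135, 146 and 102 CPM in DCT WT. All 4 PCT values lay under all 4 DCT values, at -1.43 on the log2 scale (SE 0.13, n = 4 each, voom fit, limma adjusted p = 1.24e-07), the largest drop among the called members. Atp5g1 had 105, 115, 124 and 129 CPM in PCT WT and 265, 218, 254 and 222 CPM in DCT WT. Its log2 difference was -1.03 (SE 0.10, limma adjusted p = 2.86e-07), again with no overlap. Uqcrh had 49.95, 56.3, 59.9 and 45.6 CPM in PCT WT and 102, 107, 112 and 99.3 CPM in DCT WT. The 2 sets of values were separate, and the log2 difference was -1.003 (SE 0.10, limma adjusted p = 4.99e-07). The processed pseudogene Gm12854 overlaps Uqcrh on the other strand, so a share of its reads is uncertain.

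Cox6c (log2 difference -0.91), Cox6b1 (-0.88) and Cox5b (-0.94), all nuclear subunits of complex IV, fell in the same comparison, as did the complex I subunits Ndufa1 (-1.01), Ndufb11 (-0.85) and Ndufa9 (-0.86); in each of the 6 the PCT WT values lay wholly under the DCT WT values. Cox6c overlaps Vps13b on the other strand, at 28.4 CPM on average, and the strand setting of the counting is not given in the sources used here. Members that did not pass, with values near 0, included Sdhc, a membrane anchor of complex II (log2 difference 0.0044, 95% interval -0.20 to 0.20), the complex III core protein Uqcrc2 (-0.041, interval -0.25 to 0.16), and Ndufs1, an iron-sulfur subunit of complex I (0.018, interval -0.24 to 0.28). Sdhc stood at 69.9, 82.3, 72.7 and 74.1 CPM in PCT WT and at 77.5, 68.1, 77.4 and 73.1 CPM in DCT WT, and the groups overlapped fully. Ndufs1 overlaps Eef1b2 on the other strand, at 20.3 CPM on average, so a share of its reads is uncertain. Ndufv3, an accessory subunit of complex I, was the highest on this scale among the abundant members without passing (0.25, adjusted p = 0.14).

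The promoters of the members with the smallest p in this comparison are shown because these genes moved together between segments. They are RefSeq windows on GRCm38.p6, 5′ to 3′ on the strand of the gene, from 250 bases before to 50 bases after the annotated start. Capitals mark matches to 3 motifs named for factors known to act on respiratory chain genes, NRF1 (the 10 bases in capitals in Atp5h that begin with GCGCA, with the sixth base free), ETS factors such as GABPA (CCGGAAGT) and YY1 (AAGATGGC), read on both strands. Atp5h lies at chr11:115419870-115420169 on the minus strand, Cox7b at chrX:106015450-106015749 on the plus strand, Atp5g1 at chr11:96075582-96075881 on the minus strand and Uqcrh at chr4:116075021-116075320 on the minus strand.
Atp5h: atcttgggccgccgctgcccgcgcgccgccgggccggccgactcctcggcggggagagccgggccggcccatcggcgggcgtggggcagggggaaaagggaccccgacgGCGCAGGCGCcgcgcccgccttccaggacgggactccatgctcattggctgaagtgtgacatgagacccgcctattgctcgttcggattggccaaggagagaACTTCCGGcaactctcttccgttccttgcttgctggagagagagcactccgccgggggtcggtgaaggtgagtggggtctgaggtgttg
Cox7b: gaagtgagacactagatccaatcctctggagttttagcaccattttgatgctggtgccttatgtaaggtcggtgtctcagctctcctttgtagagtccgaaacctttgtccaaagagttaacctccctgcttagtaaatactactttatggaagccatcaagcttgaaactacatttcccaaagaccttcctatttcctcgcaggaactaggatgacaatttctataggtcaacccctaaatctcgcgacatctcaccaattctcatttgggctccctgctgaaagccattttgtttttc
Atp5g1: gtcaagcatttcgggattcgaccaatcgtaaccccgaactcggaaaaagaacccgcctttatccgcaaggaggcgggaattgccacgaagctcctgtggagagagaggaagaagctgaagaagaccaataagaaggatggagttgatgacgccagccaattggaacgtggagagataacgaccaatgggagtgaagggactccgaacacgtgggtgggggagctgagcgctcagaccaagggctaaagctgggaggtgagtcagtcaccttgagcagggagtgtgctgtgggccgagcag
Uqcrh: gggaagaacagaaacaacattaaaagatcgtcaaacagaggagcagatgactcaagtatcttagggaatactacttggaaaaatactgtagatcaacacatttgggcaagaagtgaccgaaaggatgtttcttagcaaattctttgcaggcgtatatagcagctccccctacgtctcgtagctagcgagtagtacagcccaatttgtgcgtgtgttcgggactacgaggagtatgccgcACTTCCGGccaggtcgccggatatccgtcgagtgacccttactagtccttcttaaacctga
Atp5h held an NRF1 match 141 bases before its RefSeq start and an ETS match 39 bases before it. Uqcrh held an ETS match 11 bases before its start, and the windows of Cox7b and Atp5g1 none of the 3 motifs. The end of the window matched a GENCODE M21 transcript for Cox7b, Atp5g1 and Uqcrh but not for Atp5h. GENCODE M21 places the start of Atp5h at 115419962, upstream of the RefSeq start, so its distances hold for RefSeq only. RefSeq windows matched 69 of the 84 member symbols. Among their 74 windows, 24.3% held the NRF1 motif, 6.76% the ETS motif and 13.5% the YY1 motif. Over the 21262 windows of all protein-coding genes the shares were 6.38% for NRF1, 5.15% for ETS and 3.05% for YY1. The median log2 difference between segments was -0.59 for the 30 members with any of the 3 motifs and -0.64 for the 37 tested members without one.

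In KO mice the members again stood lower in PCT than in DCT. Of 79 members tested, 44 fell and 0 rose, where 20.2% of all 13834 genes fell and 20.4% rose (40.6% in all), and the median log2 difference was -0.66, against -0.039 over all genes. It was below 0 for 72 members, against 51.8% of all genes. In 40 members every PCT value lay under every DCT value (22.2% of all genes), and in 0 above (21.7%). All 44 were among the 65 that fell in WT, so they made up 100% of the KO list and 67.7% of the WT list. Complex V gave 13 of 17 (median -0.96), complex IV 8 of 12 (median -1.12), complex I 18 of 36 (median -0.57), complex III 5 of 9 (median -0.50) and complex II 0 of 4 (median -0.28; 1 at an unadjusted p under 0.05). Without PCT KO replicate 5, 27 of these 79 members were called: 26 fell and Ndufv3 rose. The median log2 difference was then -0.43, against -0.66 with all libraries, and 69 members were below 0. The medians by complex given above include that replicate. The count of called members was 27, 26 and 24 without DCT KO replicates 5, 6 and 8.

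Atp5h had 53.6, 27.8 and 52.4 CPM in PCT KO replicates 4, 5 and 7, against 109, 123, 94.8 and 141 CPM in DCT KO replicates 5 to 8. The groups were separate even at their nearest values, and the log2 difference was -1.43 (SE 0.23, n = 3 and 4, limma adjusted p = 1.25e-04) or -1.12 without PCT KO replicate 5 (adjusted p = 2.33e-04). Cox7b had 48.0, 35.6 and 53.1 CPM in PCT KO and 128, 147, 93.4 and 132 CPM in DCT KO. It too showed no overlap, at -1.45 on the log2 scale (SE 0.19, limma adjusted p = 2.8e-05), and -1.28 without that library. For Atp5g1 (-1.28 with all libraries and -0.80 without it), Uqcrh (-1.17 and -0.79) and Cox6c (-1.34 and -1.10) the call stood in both fits.

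Within the proximal tubule, no member passed the test between KO and WT (0 of 80, limma), where 0.166% of all 13229 genes did, 0.0983% higher and 0.068% lower. The values nevertheless leaned one way. The log2 difference was below 0 for 75 of 80 members, against 51.6% of all genes, and the median was -0.30, against -0.015. The lean was not particular to the members: 76 of 80 cytosolic ribosomal protein genes were below 0, with a median of -0.29. At an unadjusted p under 0.05, 11 members were lower, where the share over all genes was 3.17%, and 1 was higher, where it was 4.21%. In 10 members all 3 KO values lay under all 4 WT values, a pattern that 3.54% of all genes showed, and in 0 members above them (4.44% of all genes). Medians were -0.48 in complex IV, -0.41 in complex V, -0.27 in complex III, -0.22 in complex I and -0.13 in complex II.

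This lean rested on 1 library. PCT KO replicate 5 was the lowest of the 7 PCT libraries in 74 of 80 members. The median deviation of the members from the PCT WT mean was -0.08, -0.77 and 0.02 log2 units in KO replicates 4, 5 and 7, against -0.10, 0.04, 0.09 and -0.02 in WT replicates 1, 2, 3 and 6. Only replicate 5 lay outside the range of the WT libraries. Without it the median log2 difference was -0.038, 47 of 80 members were below 0, 32 had changed sign, and 3 lay under an unadjusted p of 0.05, the lowest adjusted p being 0.43. With sample quality weights the median was -0.13, and without KO replicate 7 it was -0.47.

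**Figure D2:**
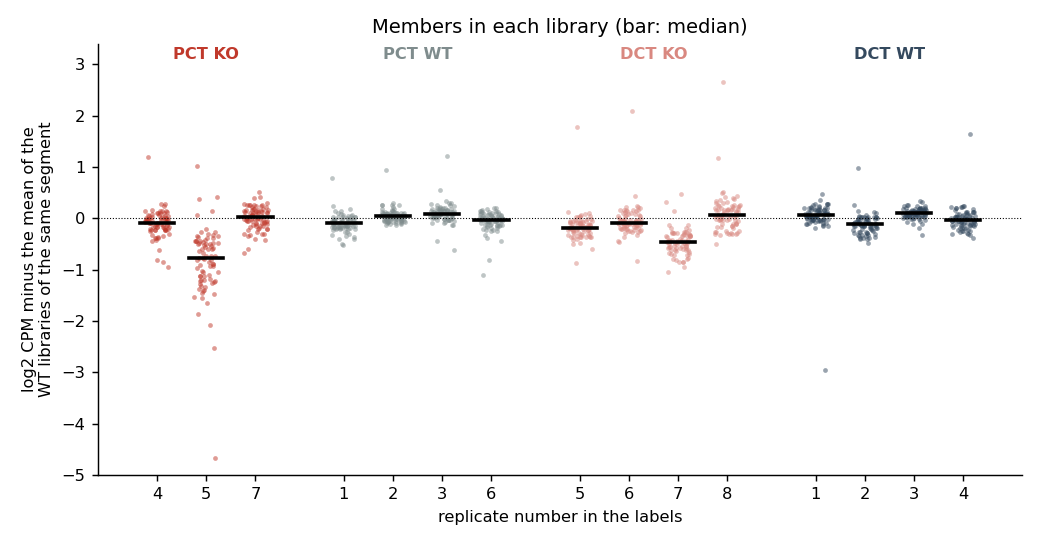
Log2 CPM of each tested member minus the mean of the WT libraries of the same segment (vertical axis), for every library (horizontal axis, by group and replicate number); bars are medians. PCT KO replicate 5 has its median at -0.77 and DCT KO replicate 7 at -0.46, while the medians of the other 13 libraries lie between -0.18 and 0.11.

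**Figure D3:**
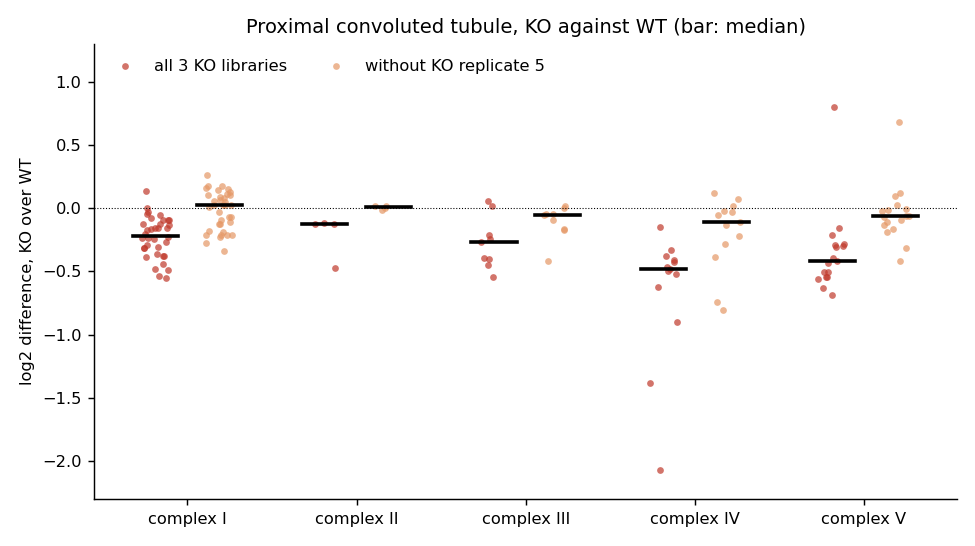
Log2 difference of KO over WT in the PCT (vertical axis) for each member by complex, with all 3 KO libraries (dark points, left in each pair) and without KO replicate 5 (light points, right); bars are medians. The median over all members is -0.30 with all libraries and -0.038 without that replicate.

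Other transcripts moved in the same library, and their part in the result was not tested. Cytosolic ribosomal protein genes had a median deviation of -0.95 in PCT KO replicate 5. Other nuclear coding genes with a transcript under 1000 bases stood at -0.53 there (599 genes), those from 1000 to 3000 bases at -0.019 (4954 genes), and those over 3000 bases at 0.21 (5163 genes). Most members are short: the 51 members under 1000 bases stood at -0.96 in this library and the 6 over 2000 bases at -0.42, and across the 80 members the deviation followed length with a Spearman rho of 0.53. That rho was 0.40 and 0.14 in PCT KO replicates 4 and 7. In PCT WT replicates 1, 2, 3 and 6 it was 0.25, -0.16, -0.23 and -0.012. Genes that share a library and a length class are not independent. The 3 members that were highest in replicate 5 among the PCT libraries were Ndufs1 (deviation 0.42), Uqcrc1 (0.15) and Uqcrc2 (0.37). The 13 mitochondrially encoded subunits stood at 0.13 in replicate 5. The 8 straight proximal tubule markers summed to 864 to 991 CPM in PCT KO, against 316 to 523 CPM in PCT WT. They did not overlap, all 8 were above 0, and 2 rose, Atp11a (log2 difference 1.62) and Acy3 (1.12). The 6 endothelial markers summed to 19.4 to 35.7 CPM in PCT KO, against 11.1 to 23.0 CPM in PCT WT. The 6 thick ascending limb markers, Cldn10 among them, summed to 0.641 to 1.37 CPM in PCT KO, against 12.0 to 30.02 CPM in PCT WT. Cldn10, the gene knocked out, had a mean of 21.5 CPM in PCT WT and 0 in PCT KO, so it makes up most of this drop. Of the 3 markers tested, 1 was above 0 and 2 were below.

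**Figure D4:**
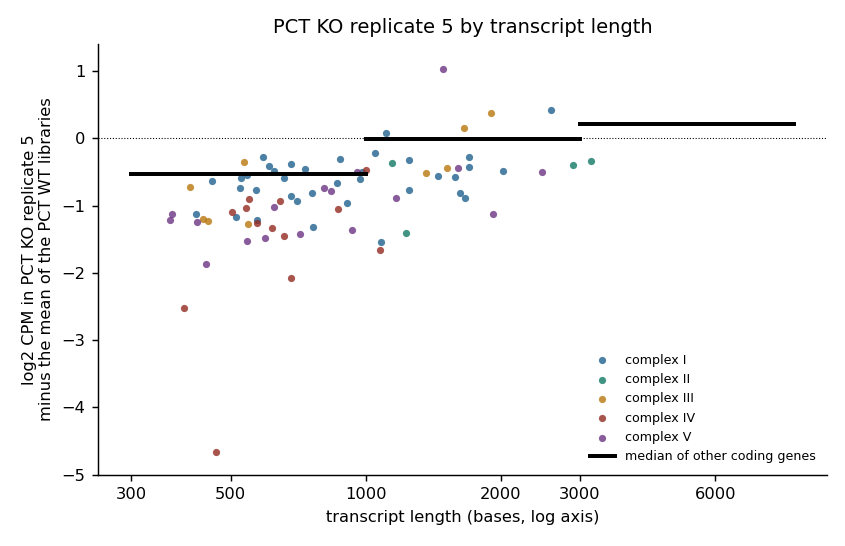
Log2 CPM in PCT KO replicate 5 minus the mean of the PCT WT libraries (vertical axis) against transcript length (horizontal log axis) for the members of complexes I to V; black bars give the median of other nuclear coding genes in 3 length classes, -0.53, -0.019 and 0.21. Short members lie lowest, as do other short transcripts.

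The members with the smallest p in the PCT were named although none passed. Cox6c had 51.6, 29.9 and 47.5 CPM in PCT KO, against 61.3, 68.3, 71.5 and 56.0 CPM in PCT WT. All KO values lay under all WT values, at -0.63 on the log2 scale (SE 0.19, n = 3 and 4, limma adjusted p = 0.38), or -0.39 without replicate 5. Atp5o, the oligomycin sensitivity protein that joins the 2 parts of ATP synthase, had 10.4, 8.08 and 10.6 CPM in PCT KO and 14.8, 13.0, 14.6 and 13.3 CPM in PCT WT. There was again no overlap, and the log2 difference was -0.55 (SE 0.17, limma adjusted p = 0.38), or -0.42 without replicate 5. In the authors' deposited table, Cox6c and Atp5o had log2 fold changes of -0.59 and -0.54 with adjusted p of 0.22 and 0.25. None of the 80 members with an adjusted p was called there, where 136 of all 14748 genes with one were. The sign of that table was read from Cldn10.

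Atp5g3, a second c-ring gene, had 53.6, 25.6 and 58.5 CPM in PCT KO and 67.5, 82.8, 76.1 and 52.6 CPM in PCT WT, and the groups overlapped (log2 difference -0.69, adjusted p = 0.57). Ndufa3, a small accessory subunit, had 13.9, 8.05 and 17.8 CPM in PCT KO and 16.8, 18.5, 18.2 and 19.3 CPM in PCT WT, with overlap (-0.54, adjusted p = 0.63). Of the members above 0, Atp5s, also called Dmac2l, had 3.06, 2.73 and 1.63 CPM in PCT KO and 2.33, 1.62, 0.872 and 0.978 CPM in PCT WT. Its groups overlapped (log2 difference 0.80, adjusted p = 0.67). The next were Ndufa12 (0.14), Uqcrc2 (0.060), Cycs (0.033) and Uqcrc1 (0.018), each with an adjusted p of 0.87 or more.

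In the distal tubule no member passed the test between KO and WT (0 of 79, limma), and 0.0% of the 12968 genes did. The log2 difference was below 0 for 68 of 79 members, against 50.9% of all genes, with a median of -0.16, against -0.0062 over all genes. Of the cytosolic ribosomal protein genes, 75 of 81 were below 0, with a median of -0.21. At an unadjusted p under 0.05, 9 members were lower (3.58% of all genes) and 0 were higher (3.55% of all genes). In 3 members the groups did not overlap, the KO values lying lower, a pattern seen in 1.81% of all genes; 2.01% of all genes showed the opposite order and 0 members did. All 3 belonged to complex I. Complex medians lay between -0.14 and -0.18.

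DCT KO replicate 7 was the lowest of the 8 DCT libraries in 60 of 79 members. The median deviation from the DCT WT mean was -0.18, -0.08, -0.46 and 0.06 in KO replicates 5 to 8, against 0.07, -0.12, 0.11 and -0.03 in WT replicates 1 to 4. KO replicates 5 and 7 lay under the WT range. Without KO replicate 7 the median log2 difference was -0.063 with 58 of 79 members below 0, and without KO replicate 8 it was -0.25. Beside it, in KO replicate 7, cytosolic ribosomal protein genes stood at -0.49, other coding genes under 1000 bases at -0.34 (604 genes) and those over 3000 bases at 0.16 (5273 genes). The members themselves differed little by length there: the 50 under 1000 bases stood at -0.48 and the 6 over 2000 bases at -0.41. Their deviation and length had a Spearman rho of 0.19. The 6 thick ascending limb markers summed to 454 to 599 CPM in DCT KO and 321 to 547 CPM in DCT WT, and the 5 tested were above 0 (median log2 difference 0.59). Markers on the lists of other cells lay below 0, and none passed. This held for all 6 of connecting tubule and principal cells (median -0.49), of which Calb1 is also on the distal convoluted tubule list. It held too for all 5 of intercalated cells (median -0.36) and all 6 of endothelium (median -0.34). The intercalated markers summed to 101 to 192 CPM in DCT KO and 157 to 224 CPM in DCT WT, and the endothelial ones to 50.9 to 55.8 CPM in DCT KO and 55.3 to 77.8 CPM in DCT WT. The part of these values in the result was not tested.

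Ndufa9, a complex I accessory subunit, had 27.1, 29.3, 23.5 and 24.9 CPM in DCT KO, against 37.0, 38.1, 35.3 and 29.9 CPM in DCT WT. All KO values lay under all WT values, and the log2 difference was -0.42 (SE 0.13, n = 4 each, limma adjusted p = 0.67), or -0.37 without KO replicate 7. Ndufs7, which carries an iron-sulfur cluster at the end of the electron path in complex I, had 14.1, 12.8, 10.1 and 14.7 CPM in DCT KO and 16.6, 17.3, 17.4 and 19.1 CPM in DCT WT. Its groups were separate too, at -0.46 on the log2 scale (SE 0.15, limma adjusted p = 0.67), or -0.35 without KO replicate 7. Ndufv1, the NADH-binding flavoprotein of complex I, had 24.4, 26.9, 20.5 and 25.04 CPM in DCT KO and 32.9, 31.6, 32.2 and 28.8 CPM in DCT WT. No value was shared, at a log2 difference of -0.38 (adjusted p = 0.67), or -0.30 without KO replicate 7. In the authors' deposited table Ndufa9 and Ndufs7 had adjusted p of 0.23 and 0.33 in the DCT. There 0 of the 78 members with an adjusted p were called, and only 3 of all 7181 genes with one.

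Uqcrh (log2 difference -0.35) and Atp5a1, the alpha subunit of ATP synthase (-0.27), followed, both with overlap between the groups and adjusted p of 0.67 and 0.68. Uqcrh had 75.7, 101, 71.7 and 84.99 CPM in DCT KO and 102, 107, 112 and 99.3 CPM in DCT WT. Above 0, Cox6b2 had 0.446, 0.552, 0.174 and 0.830 CPM in DCT KO and 0, 0.252, 0.155 and 0.407 CPM in DCT WT. At these levels, 0 to 36 counts per library, the groups overlapped (log2 difference 1.52, SE 0.84, adjusted p = 0.70). Uqcrb (0.090), Ndufc1 (0.088), Ndufs1 (0.084) and Uqcrfs1, the Rieske iron-sulfur protein (0.057), had adjusted p of 0.92 or more.

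The genotype effect in PCT minus that in DCT was tested in 1 fit of all 15 libraries. No member passed (0 of 80, where 0.0% of 15279 genes did), and the median was -0.13, against -0.0022 over all genes, with 60 of 80 members below 0 against 50.2% of all genes. At an unadjusted p under 0.05, 2 were lower and 1 higher, where 2.4% and 3.16% of all genes were. Those 3 were Cox6b2 (-3.60, adjusted p = 0.76), Cox6c (-0.45, adjusted p = 0.89) and Atp5s (0.99, adjusted p = 0.89). Without PCT KO replicate 5 the median was 0.12, of the opposite sign. It was 0.013 with sample quality weights, -0.29 without PCT KO replicate 7 and -0.26 without DCT KO replicate 7; the smallest values in size among the DCT libraries left out came without DCT WT replicate 2 (-0.062) and DCT KO replicate 8 (-0.064), and those without PCT KO replicate 4 and PCT WT replicate 1 were -0.20 and -0.19.

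Several complex IV subunits have tissue isoforms, with one form in most tissues and another in heart and skeletal muscle, lung or testis. In both segments the broadly expressed forms made up most reads. The muscle form Cox7a1 reached 6.20 CPM in DCT KO replicate 8, beside 50.4 CPM of its broad form Cox7a2. Cox6a1, the broad form of subunit VIa, had 102, 45.2 and 129 CPM in PCT KO, 94.7, 104, 120 and 117 CPM in PCT WT, 152, 143, 93.5 and 180 CPM in DCT KO, and 168, 123, 149 and 163 CPM in DCT WT. PCT KO replicate 5 and DCT KO replicate 7 were the lowest of their segments, and in WT the PCT values lay under the DCT values (log2 difference -0.47, limma adjusted p = 0.0026).

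Cox6a2, its heart and skeletal muscle form, had 0.306, 0.124 and 0.683 CPM in PCT KO and 0.393, 0.622, 1.33 and 0.318 CPM in PCT WT, from 5 to 31 and from 14 to 70 counts. It had 0 counts in all 8 DCT libraries. With a floor of 3 counts per library in the DCT, its mean was at least 4.79-fold higher in PCT than in DCT among KO libraries and at least 8.48-fold higher among WT libraries. It passed the filter on low counts only through PCT, so its test is not given. Floors cover counting error only. The 6 muscle markers summed to 0.870 to 0.9752 CPM in PCT KO, 0.702 to 1.46 CPM in PCT WT, 1.13 to 1.89 CPM in DCT KO and 1.39 to 5.75 CPM in DCT WT, with Ckm at 0 in all libraries.

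Cox7a1, the heart and skeletal muscle form of subunit VIIa, had 0.613, 0.199 and 0.749 CPM in PCT KO, 1.26, 1.41, 0.891 and 1.34 CPM in PCT WT, 2.13, 2.30, 1.32 and 6.20 CPM in DCT KO, and 2.86, 1.97, 3.15 and 3.15 CPM in DCT WT. It was lower in PCT than in DCT within both genotypes without overlap (log2 difference -2.44 in KO, adjusted p = 0.011, and -1.19 in WT, adjusted p = 0.0012). Without PCT KO replicate 5 the KO difference was -1.88 and no longer passed (adjusted p = 0.056). Between KO and WT in the PCT its values did not overlap, but it did not pass (-1.38, adjusted p = 0.51, and -0.80 without replicate 5). Cox7a2, the broad form, had 28.4, 11.4 and 31.9 CPM in PCT KO, 26.3, 33.9, 34.0 and 30.2 CPM in PCT WT, 37.9 to 50.4 CPM in DCT KO and 46.5 to 59.4 CPM in DCT WT. Both forms fell in PCT relative to DCT of WT, Cox7a2 by 0.74 on the log2 scale.

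Cox4i1, the broad form of subunit IV, had 57.1, 19.9 and 61.6 CPM in PCT KO, 51.3, 73.4, 78.5 and 66.9 CPM in PCT WT, 93.6, 92.8, 63.3 and 88.9 CPM in DCT KO, and 114, 98.4, 118 and 93.6 CPM in DCT WT. The lowest values were again PCT KO replicate 5 and DCT KO replicate 7. Its lung form Cox4i2 had 0 counts in all libraries but DCT KO replicates 6 and 7 (0.17 and 0.07 CPM). Cox8b and Cox8c had 0 counts in every library, while the broad Cox8a lay between 33.6 and 68.5 CPM in PCT KO, 56.6 and 67.2 CPM in PCT WT, 66.7 and 108 CPM in DCT KO, and 80.2 and 105 CPM in DCT WT. Cox7b2 had 1 count in all, and Ndufa4l2, a paralogue of Ndufa4 known as a target of hypoxia signalling, had 13 counts over the 15 libraries. Cyct, the testis cytochrome c, was at 0 throughout.

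**Figure D5:**
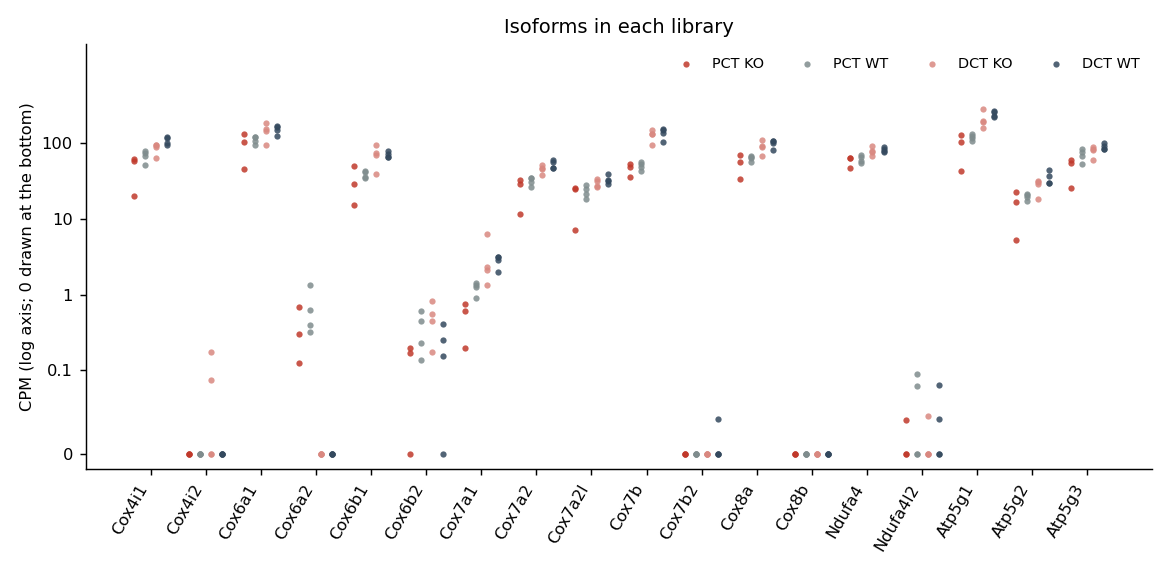
CPM of the isoforms (vertical log axis, with 0 drawn at the bottom) in each library, coloured by segment and genotype, PCT KO, PCT WT, DCT KO and DCT WT from left to right for each gene. Atp5g1 reaches 278 CPM in 1 DCT KO library, whereas Cox6a2, Cox6b2 and Cox7a1 stay at or under 6.20 CPM.

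Of the c-ring genes, which encode the same mature protein behind different import sequences, Atp5g1 was the most abundant in all libraries, at 42.1 to 126 CPM in PCT KO, 105 to 129 CPM in PCT WT, 158 to 278 CPM in DCT KO and 218 to 265 CPM in DCT WT. Atp5g3 lay between 25.6 and 58.5 CPM, 52.6 and 82.8 CPM, 59.7 and 87.9 CPM, and 83.4 and 101 CPM in the same order of groups. Atp5g2 lay between 5.29 and 22.5 CPM, 17.0 and 21.1 CPM, 18.0 and 31.3 CPM, and 29.6 and 44.1 CPM. All 3 fell in PCT relative to DCT of WT, by 1.03, 0.39 and 0.84 on the log2 scale for Atp5g1, Atp5g3 and Atp5g2.

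The 13 subunits encoded by mitochondrial DNA are given beside the nuclear members. In the DCT all 13 had a log2 difference above 0 between KO and WT (median 0.23). Of these, 5 had an unadjusted p under 0.05, where 3.55% of all genes were higher at that p. None passed (0 of 13, limma, lowest adjusted p 0.58). The smallest p was that of mt-Nd4l, a membrane-arm subunit of complex I, with 3057, 2927, 2996 and 3947 CPM in DCT KO against 1826, 2169, 2223 and 2707 CPM in DCT WT. Its groups did not overlap (0.54, limma adjusted p = 0.58), and mt-Nd4 (0.41) and mt-Nd5 (0.43) followed. In 4 of the 13 every KO value lay above every WT value, against 2.01% of all genes. In the PCT 12 of 13 were below 0 (median -0.13) and 0 passed. Between segments they were lower in PCT, as the nuclear members were. In KO 11 of 13 fell (median -0.86), against 20.2% of all genes, and in WT 10 of 13 (median -0.48), against 25.1%. Both were led by mt-Co1 (-1.48 in KO and -0.95 in WT). Of the cytosolic ribosomal protein genes, 7 of 81 rose and 0 fell in PCT relative to DCT of KO (median 0.11), where 20.4% and 20.2% of all genes did, and 25 of 80 rose and 1 fell in WT (median 0.23), where 23.6% and 25.1% did.

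Among 16 regulators of mitochondrial gene expression, 0 passed between KO and WT in either segment. In PCT relative to DCT of WT, 4 rose and 4 fell, near the 23.6% and 25.1% of all genes. Ppargc1a, the coactivator PGC-1alpha that drives mitochondrial biogenesis, had 25.2, 37.4 and 31.5 CPM in PCT KO, 43.8, 35.9, 35.05 and 41.0 CPM in PCT WT, 93.5, 70.7, 99.7 and 92.8 CPM in DCT KO, and 74.7, 64.1, 64.4 and 72.6 CPM in DCT WT. It was lower in PCT than in DCT in both genotypes without overlap (log2 difference -1.502 in KO, adjusted p = 1.22e-05, and -0.84 in WT, adjusted p = 5.95e-06). Its interaction had an unadjusted p of 0.0029 and did not pass (-0.68, adjusted p = 0.64). Esrrb, an orphan nuclear receptor, fell in PCT relative to DCT of WT (-5.11, adjusted p = 7.36e-08), and Ppara, which governs fatty acid oxidation genes, rose (3.13, adjusted p = 1.36e-06).

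Of the subunits that the name pattern leaves out, Cox4i1 (log2 difference -0.67) and the acyl carrier Ndufab1 (-0.32) fell in PCT relative to DCT of WT, and Usmg5 did not pass (0.0018, adjusted p = 0.99). Atpif1, the inhibitor of ATP synthase hydrolysis, rose instead: it had 30.1, 19.5 and 34.8 CPM in PCT KO, 32.3, 34.6, 30.4 and 27.9 CPM in PCT WT, 18.2, 18.1, 11.5 and 20.1 CPM in DCT KO, and 15.3, 14.3, 15.1 and 14.3 CPM in DCT WT. In WT all PCT values lay above all DCT values (1.07, limma adjusted p = 7.19e-07); in KO the groups overlapped through PCT KO replicate 5 (0.73, adjusted p = 0.024).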

How the data were processed

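Per the labels' protocols, total RNA was purified on small columns, and libraries were made by tagmentation with Nextera XT. Named in the submitters' processing notes are CASAVA 1.8, STAR 2.5, DESeq2 1.24.0 and GRCm38; how reads were assigned to genes, and whether by strand, is not given in the sources used here. The table the authors deposited holds whole-number counts per gene and library, and 2 further tables deposited by the authors hold log2 fold changes with p-values, used for comparison. The layout of these files was not recognised by a format check, so their units were recorded as other and limma 3.58.1 (R 4.3.3) was used on the counts.

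Symbols came from GENCODE M21. Libraries were scaled by the TMM method, trimming 30% of the log ratios and 5% of the mean levels. Genes needed about 10 counts in the number of libraries that the smaller group holds, and 15 in total. Their log2 CPM, with 0.5 added to each count, entered limma with voom weights, and p-values were adjusted by Benjamini-Hochberg over all genes tested. CPM given per library come from 1 scaling of all 15 libraries, and transcript lengths are those of the principal transcript. The fit was tested on simulated data. Members and lists were chosen with earlier results of these data known. Named genes were called members, the 5 smallest p in each direction between genotypes, up to 10 called members per direction between segments, all isoforms listed, the highest member per length of each complex, the 3 smallest p of the interaction and up to 3 genes per other list. PCT KO replicate 7 and PCT WT replicate 6 have library numbers in another range, and were left out or modelled as alternatives. Replicates correlated at 0.91 to 0.94 over 21 pairs, and none were identical.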

Additional observations from a re-analysis of the deposited data

Results flagged for a closer look

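Of 111 groups of 4 libraries tested for a value far from the others, 3 had one; chance gives about 1 in 20. Atp5a1 was high in PCT WT replicate 3, at 310 CPM, where the other 3 PCT WT libraries lay between 283 and 287 CPM. Cox4i1 was low in DCT KO replicate 7, at 63.3 CPM, where the other 3 DCT KO libraries lay between 88.9 and 93.6 CPM. Uqcrb was low in DCT WT replicate 2, at 16.5 CPM, where the others lay between 18.4 and 18.7 CPM. Groups of 3, such as PCT KO, were not tested in this way.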

How the results depend on the processing

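No member was called between KO and WT in PCT (17 alternatives), between KO and WT in DCT (16 alternatives) or in the interaction (23 alternatives). Between segments of WT the count of called members lay between 53 and 69 under all alternatives, beside 66 (Cox6a2 among them), and the median log2 difference between -0.61 and -0.52. Between segments of KO it was 44, and leaving out 1 library gave 24 (DCT KO replicate 8) to 48. Whether the replicate number of the labels pairs the samples could not be decided. Deviations of same-numbered PCT and DCT libraries correlated at 5.8e-07, -0.022 and 0.023 in WT and -0.070 and -0.12 in KO. Not every library correlated best with its own number. Low correlations between different segments cannot tell whether the libraries shared a mouse. With a replicate block the count was 5 in KO and 55 in WT; the KO groups share 2 numbers. The interaction median lay between -0.29 and 0.12 with 1 library left out, and at 0.013 with sample quality weights.

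Of the single members, those near 0 changed sign. In the PCT between KO and WT, Uqcrc2 lay at -0.016 with sample quality weights and between -0.090 and 0.16 with 1 library left out, Uqcrc1 at -0.0098 with scaling on nuclear coding genes, at -0.021 with sample quality weights and between -0.044 and 0.036 with 1 library left out, and Cycs at -0.26 without both libraries of the other number range and between -0.22 and 0.28 with 1 left out. In the DCT, Uqcrb lay between -0.020 and 0.22 and Uqcrfs1 between -0.11 and 0.18 with 1 left out. Between segments of KO, Cycs lay at -0.074 without both libraries of the other number range and between -0.074 and 0.41 with 1 left out. Calls of 11 named members were lost under some alternative between segments of KO, and of 3 between segments of WT. The cause was not tested. Members with few counts, such as Cox6b2 with 200 over all libraries, are limited by depth.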

Other observations

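Assembly factors, which build the complexes but are not part of them, showed called genes in both directions between segments. In WT their shares were near those of all genes, and in KO they were lower. Of 44 tested, 9 rose and 11 fell in PCT relative to DCT of WT (median log2 difference -0.15), where 23.6% of all genes rose and 25.1% fell; Coa5 (-0.68), Ndufaf5 (-1.14) and Pet100 (-1.30) had the smallest p. In KO 5 rose and 7 fell, where 20.4% and 20.2% of all genes did, and Coa6 rose (2.12, limma adjusted p = 2.19e-04). Between KO and WT 0 of 44 passed in either segment; Cox19 had the smallest p in the PCT (-1.65, adjusted p = 0.35).

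Of 13 citrate cycle genes, 3 rose and 6 fell in PCT relative to DCT of WT (median -0.20), where 23.6% and 25.1% of all genes did. Cs, citrate synthase, had 43.9, 44.8 and 47.2 CPM in PCT KO, 52.6, 56.6, 54.7 and 52.2 CPM in PCT WT, 74.9, 79.5, 67.3 and 77.2 CPM in DCT KO, and 83.7, 81.1, 93.6 and 85.4 CPM in DCT WT. In both segments all KO values of Cs lay under all WT values, a pattern that 3.54% of all genes showed in PCT and 1.81% in DCT. It was the only 1 of the 13 genes to do so in each segment, and the list medians were -0.092 and -0.082. Cs did not pass between genotypes (log2 difference -0.26 in PCT, limma adjusted p = 0.73, and -0.20 in DCT, adjusted p = 0.70). PCT KO replicate 5, which was lowest in most subunit genes, was not the lowest for Cs.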
